A study of Rosa rugosa with 4 samples.

Results

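The contigs described here are those of the ubiquitin-proteasome system among transcripts assembled from leaf and petal RNA of the scented rose Rosa rugosa. A contig was a member when its first database hit was a sequence of Fragaria, Rosa, Prunus, Malus or Pyrus, its length was at least 300 nt and its hit text held ubiquitin, F-box, proteasome, RING-H2, U-box, cullin or SKP1. This gave 185 members of 65535 contigs, of which 171 hit Fragaria, 7 Prunus, 6 Pyrus and 1 Malus. They hit 147 distinct loci, and 67 members shared 29 of these loci, so a member is often a piece of a transcript and not a gene. RNA was taken from untreated plants grown in a greenhouse and sequenced after removal of ribosomal RNA, with 2 leaf libraries and 2 petal libraries, named leaf 1, leaf 2, petal 1 and petal 2. Whether the 2 libraries of a tissue are from different plants is not labelled, so a p-value measures only the spread between these libraries, which may be technical.

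Ubiquitin is a small protein that cells attach to other proteins. An activating enzyme (E1) passes it to a conjugating enzyme (E2), and a ligase (E3) chooses the protein to be marked. Plants hold large families of F-box proteins, the part of SCF ligases (SKP1, cullin and F-box protein) that binds the target, and of RING and U-box ligases. Chains of ubiquitin send many targets to the 26S proteasome, which degrades them, and deubiquitinases remove the mark. In flowers and leaves this system acts in hormone perception, in organ growth, in immunity and in senescence.

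By the words of their hits the members comprised 61 F-box contigs, 54 RING and other E3 contigs, 21 E2 contigs, 13 proteasome contigs, 10 U-box contigs, 6 deubiquitinases, 5 polyubiquitin contigs, 4 of cullin and SKP1, 3 HECT ligases and 8 others linked to ubiquitin. No member named an E1 for ubiquitin itself. The table covers only a part of the assembly, with an estimated 0.802% to 2.94% of a library's mapped fragments. An absence or a thin cover here therefore describes the table and not the tissues. Levels are given in FPKM, the fragments of a contig scaled by its effective length and by the mapped fragments of the library. The effective length counts the positions at which a fragment fits within the contig, so it is far below the contig length in short contigs. The whole fragments behind the FPKM were read back from the steps of the low values. The members held 12303 fragments over the 4 libraries, and the median member held 7. There were 16 members listed at 0 in every library, 59 with 1 to 5 fragments, 70 with 6 to 19 and 40 with at least 20. Leaf 1 had 107 members above 0, leaf 2 had 85, petal 1 had 104 and petal 2 had 102. The shortest member was 300 nt long and the longest 2460 nt, and the nearest excluded contig with the same words was 298 nt long.

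**Figure D1:**
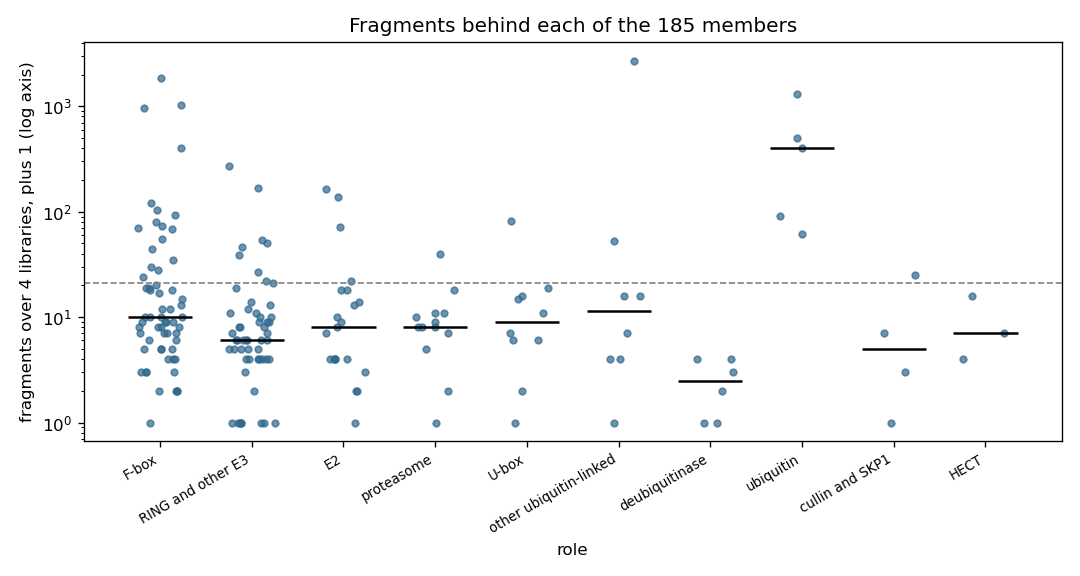
Each point is 1 of the 185 members, the y axis (log) gives its fragments summed over the 4 libraries plus 1, the black bar is the median of the role and the dashed line marks 20 fragments. The 5 polyubiquitin contigs all lie above the line, whereas no HECT ligase and no deubiquitinase does.

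The libraries had an estimated 18600000 to 26600000 mapped fragments, inferred from the steps of the FPKM values, of which the table held 0.802% to 2.94%. Contigs with a rosaceous hit took 76.8% of the table's fragments in leaf 1, 76.8% in leaf 2 and 79.2% in petal 1, and 19.7% in petal 2. In petal 2, grey mould hits took 27.8%, aphid hits 3.47% and spider and mite hits 4.83%, and in petal 1 aphid hits took 6.55%. The 38 contigs named for petal scent, pigment and MADS-box proteins overlapped between tissues, with summed FPKM of 34.2 and 146 in leaf and 397 and 137 in petal, and 2 of the 4 with at least 20 fragments were higher in both petal libraries. One of these, of the rose scent enzyme NUDX1, had 0.74 and 0.09 FPKM in leaf against 347.12 and 35.45 FPKM in petal. The 15 contigs named for photosynthetic proteins did not part the tissues either, with summed FPKM of 90.7 and 84.6 in leaf and 124 and 56.2 in petal. Of the 2 with at least 20 fragments, 0 were higher in both leaf libraries and 1 was higher in both petal libraries. That contig, of a chlorophyll a-b binding protein (TR146068), had 16.31 and 20.33 FPKM in leaf against 79.56 and 30.51 FPKM in petal. Of rosaceous-hit contigs outside the members with at least 20 fragments, 26.6% had each petal value above each leaf value. The reverse order held for 22.9%. Counts out of 4 and out of 2 contigs are too small to be told from these shares.

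As a group the polyubiquitin contigs had the highest summed FPKM of any role, and all 5 had both petal values above both leaf values. Among contigs with at least 20 fragments, 26.6% of other rosaceous-hit contigs and 16.9% of all contigs had this order. The 5 contigs hit 4 loci and may share reads, so they are not 5 independent cases. Polyubiquitin genes encode ubiquitin as head-to-tail repeats that are cleaved to free ubiquitin. Together the 5 contigs gave 518 and 363 FPKM in leaf 1 and leaf 2, and 687 and 799 FPKM in petal 1 and petal 2. They made up 60.9% to 74.1% of the summed FPKM of all members in a library, but 19.1% of the members' fragments, because they are short (314 to 383 nt). Fitted mean fragment lengths were 316 and 321 nt in leaf 1 and leaf 2, and 291 and 292 nt in petal 1 and petal 2. The scaling to FPKM is thus large for contigs near these lengths and differs between the tissues. Its part in the ranks and the petal to leaf ratios of these contigs was not tested.

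The leading polyubiquitin contig (TR100631, 314 nt) had leaf values of 424.93 FPKM (leaf 1) and 251.09 FPKM (leaf 2) and petal values of 516.65 FPKM (petal 1) and 548.01 FPKM (petal 2). Its leaf mean was 338 ± 123 FPKM and its petal mean 532 ± 22.2 FPKM (SD, n = 2), a ratio of 1.57. The leaf libraries lay farther apart than the petal libraries, and no leaf value reached a petal value. The log2 difference, taken as petal minus leaf of log2(FPKM + 1), was 0.70 (SE 0.23), and it did not pass the test across contigs with a mean of at least 1 FPKM (limma, adjusted p = 0.503). It was called with a pseudocount of 10 and with a robust prior. On reconstructed fragments, which were not scaled by effective length, the log2 difference was 1.18 and was not called (limma-voom, adjusted p = 0.293).

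The second polyubiquitin contig (TR19618, 359 nt) read 56.89 and 68.26 FPKM in leaf against 104.95 and 114.98 in petal. Petal was 1.76 times leaf in the means, and the gap between the tissues was wider than that between the libraries of either. The polyubiquitin-like contig of TR19606 (g1, 383 nt) read 16.65 and 31.48 FPKM in leaf against 40.84 and 109.81 in petal. Its petal mean was 3.13 times its leaf mean, with petal 2 far above petal 1. A sister contig of the same Trinity component and hit (g2) ran lower, at 5.61 and 6.16 FPKM in leaf against 8.39 and 11.21 in petal. The polyubiquitin 4-like contig (TR117735, 374 nt) read 13.49 and 6.08 FPKM in leaf against 16.53 and 15.24 in petal.

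The log2 differences of these contigs were 0.81 (SE 0.45) for TR19618, 1.51 (SE 0.77) and 0.64 (SE 1.33) for g1 and g2 of TR19606, and 0.74 (SE 1.16) for TR117735. None was called (limma, adjusted p from 0.503 to 0.722). Polyubiquitin genes have near-identical repeats, so the assembler and the counting could split reads among these contigs and each contig's level is uncertain. One further polyubiquitin contig, whose first hit was Brassica and which is therefore no member, ran the other way, with 123.59 and 72.24 FPKM in leaf against 20.02 and 26.83 in petal. Another, with a first hit to the parasitic wasp Lysiphlebus (TR15380), held 205 fragments, all in petal 2, the library in which TR19606 g1 was highest, and its part in that value was not tested. Of the shorter pieces of TR100631, g4 (201 nt) was listed at 0 in both leaf libraries and held 10 and 5 fragments in petal 1 and petal 2.

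**Figure D2:**
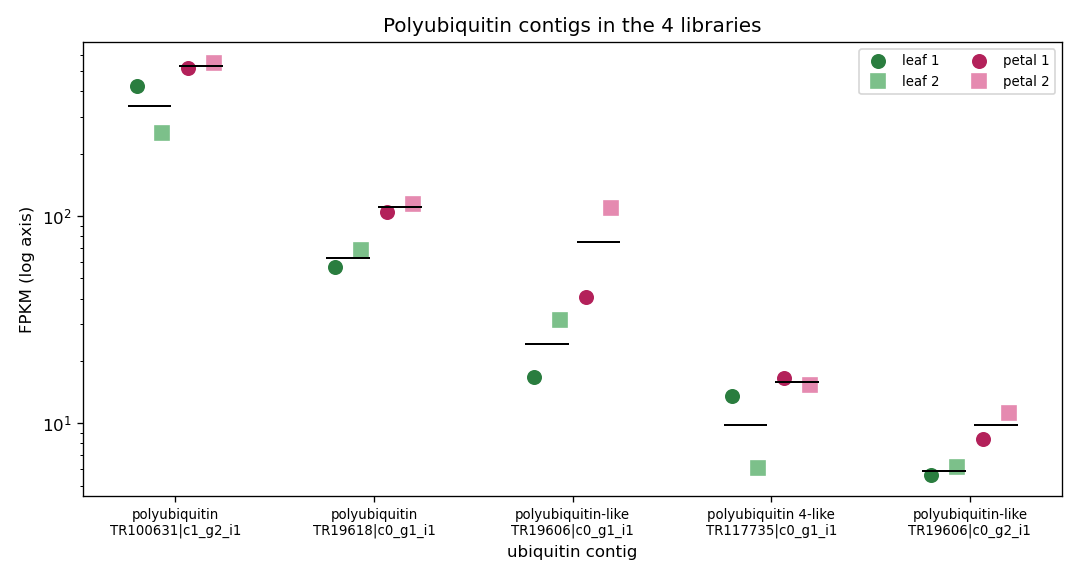
FPKM (log axis) of the 5 polyubiquitin contigs in each of the 4 libraries, with black bars for the mean of the 2 libraries of a tissue. In every contig both petal points lie above both leaf points, by the least in TR117735, where leaf 1 (13.49 FPKM) nears petal 2 (15.24 FPKM). Of other rosaceous-hit contigs with at least 20 fragments, 26.6% had this order.

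Across tissues, no member was called in the 2 limma fits with tissue as the only term. With the study's filter (mean and SD of at least 10 FPKM) 3 members were tested, all polyubiquitin, and 0 were called, where 24 of 2157 contigs (1.11%) were and 102 (4.73%) had an unadjusted p under 0.05, none of them a member (limma, adjusted p = 0.515 for each of the 3). With a mean of at least 1 FPKM, 65 members were tested and 0 were called, where 9 of 18894 contigs (0.0476%) were. At an unadjusted p under 0.05 there was 1 member of the 65, the leading polyubiquitin contig, beside 1.33% of all contigs. The median log2 difference of the 65 members was 0.10, with 38 higher in petal and 27 higher in leaf, beside a median of -0.06 over 1787 other rosaceous-hit contigs of at least 300 nt and of 1.33 over all contigs. The median stood at 0.68 without leaf 1, 0.24 without leaf 2, and 0.00 without petal 1 or without petal 2. Leaving out petal 1 gave 8 called members and leaving out petal 2 gave 2, and in 6 of these 10 calls both leaf libraries were at 0, so that the fit had no spread to measure. With limma-voom on the fragments of rosaceous-hit contigs and tissue as the only term, 0 of the 40 members with at least 20 fragments were called and 5 had an unadjusted p under 0.05.

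Among the 40 members with at least 20 fragments, 13 (32.5%) were higher in both petal libraries than in either leaf library, and 5 (12.5%) were higher in both leaf libraries. Over all contigs with that many fragments the shares were 16.9% and 13.3%, and over 1060 other rosaceous-hit contigs they were 26.6% and 22.9%. Outside the polyubiquitin contigs 8 of 35 were higher in both petal libraries, which is near the background. The 5 leaf-higher members became 11 without leaf 2 and 9 without petal 1 or without petal 2, and the 13 petal-higher members became 22 without petal 2. Leaving out a library can only keep or raise such a count, so these rises do not measure how stable the counts are.

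**Figure D3:**
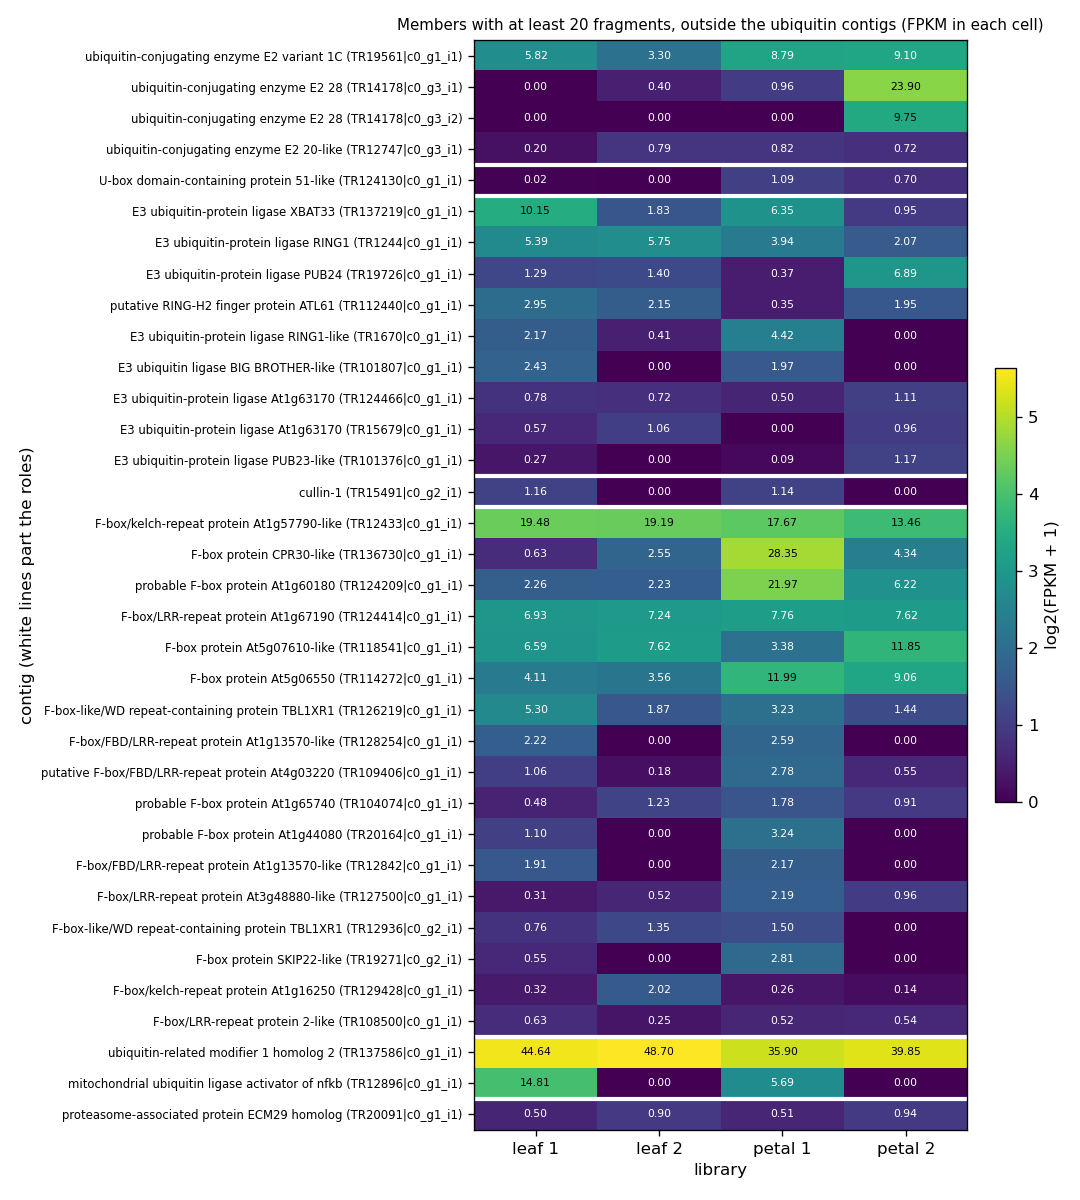
FPKM of the 35 members with at least 20 fragments outside the polyubiquitin contigs, 1 row per contig and 1 column per library, coloured by log2(FPKM + 1), with white lines between roles. URM1 homolog 2 is the highest row (35.90 to 48.70 FPKM), and 7 rows are at 0 in leaf 2 and petal 2 while above 0 in leaf 1 and petal 1.

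Of the 21 E2 contigs, 4 held at least 20 fragments. The E2 variant 1C (TR19561, 528 nt) belongs to the UEV proteins, which lack the catalytic cysteine and work with a partner E2 to make chains linked through lysine 63. It read 5.82 and 3.30 FPKM in leaf against 8.79 and 9.10 in petal. The petal values were close to each other and the petal mean was 1.96 times the leaf mean, with a log2 difference of 0.88 (SE 1.40) that was not called (limma, adjusted p = 0.628). A contig of E2 35, the name of a partner E2 in Arabidopsis, held 3 fragments, in leaf 2 and petal 2.

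The pair of contigs named E2 28 (TR14178, 568 and 601 nt, isoforms i1 and i2) were largely seen in petal 2. Isoform i1 read 0 and 0.40 FPKM in leaf, 0.96 FPKM in petal 1 and 23.90 FPKM in petal 2, from 0, 2, 5 and 157 fragments. Isoform i2 was listed at 0 in the other 3 libraries and read 9.75 FPKM in petal 2, from 71 fragments. Petal 2 is the library in which rosaceous hits took 19.7% of the table's fragments. The hits of i1 and i2 had E-values of 9e-19 and 4e-12, and the part of other organisms in these values was not tested. The log2 difference of i1 was 2.56 (SE 1.89) and was not called (limma, adjusted p = 0.503). A further contig with the same hit (TR104283) held 2 fragments in leaf 2 (4.01 FPKM) and 1 in petal 2 (1.22 FPKM) and at 0 in leaf 1 and petal 1.

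The remaining E2 contigs were thinly covered. The E2 20-like contig (TR12747, g3) read 0.20 and 0.79 FPKM in leaf against 0.82 and 0.72 in petal, from 21 fragments. The E2-23 kDa-like contig (TR1084) read 1.45 and 1.31 FPKM in leaf against 3.23 and 2.59 in petal, from 17 fragments, and was not called at a log2 difference of 0.71. The 4 contigs named E2 34-like, a name given in Arabidopsis to an E2 of the endoplasmic reticulum, held 11 fragments in all, of which 8 were in petal 1.

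The 61 F-box contigs held 5387 fragments, 43.8% of those of all members, and 17 of them held at least 20. Of the 17, 5 had both petal values above the leaf values and 2 had both leaf values above the petal values. The shares over other rosaceous-hit contigs with at least 20 fragments were 26.6% and 22.9%, and over all such contigs 16.9% and 13.3%. The F-box/kelch-repeat contig At1g57790-like (TR12433, 1506 nt) was the highest, at 19.48 and 19.19 FPKM in leaf against 17.67 and 13.46 in petal. Its leaf mean was 1.24 times its petal mean, and the log2 difference of -0.31 (SE 1.0) was not called (limma, adjusted p = 0.83). It was called at -0.49 without petal 1. The F-box/LRR-repeat contig At1g67190 (TR124414, 1883 nt) was the steadiest of the well-covered ones, at 6.93 and 7.24 FPKM in leaf against 7.76 and 7.62 in petal, from 1036 fragments.

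The 3 F-box contigs that follow had no overlap between tissues, were higher in petal and were not called. At1g60180 and CPR30-like were named for a high mean FPKM, which rests largely on petal 1. CPR30-like was also named for its difference without overlap, and At5g06550 was chosen after its values were seen. None of the 3 was chosen apart from its petal values. The contig of probable F-box protein At1g60180 (TR124209, 896 nt) read 2.26 and 2.23 FPKM in leaf, 21.97 FPKM in petal 1 and 6.22 FPKM in petal 2. The leaf values nearly coincided and the petal mean was 6.28 times the leaf mean, with a log2 difference of 1.99 (SE 1.49; limma, adjusted p = 0.503). It was called without petal 1, at 1.15, and without petal 2, at 2.82. The CPR30-like contig (TR136730, 365 nt) read 0.63 and 2.55 FPKM in leaf, 28.35 FPKM in petal 1 and 4.34 FPKM in petal 2, from 1, 3, 42 and 8 fragments. In Arabidopsis the F-box protein CPR30 (also CPR1) keeps immune receptors at a low level. The contig of F-box protein At5g06550 (TR114272, 1845 nt) read 4.11 and 3.56 FPKM in leaf against 11.99 and 9.06 in petal, from 957 fragments. Both petal values were above 9 FPKM and both leaf values below 5 FPKM, a ratio of means of 2.74, with a log2 difference of 1.24 (SE 1.39; limma, adjusted p = 0.503).

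There were 6 CPR30-like contigs on 6 loci, with 7 and 8 fragments in leaf 1 and leaf 2 and 61 and 17 fragments in petal 1 and petal 2, most of them from TR136730. The F-box/LRR-repeat contig At3g48880-like (TR127500, 1172 nt) read 0.31 and 0.52 FPKM in leaf against 2.19 and 0.96 in petal. In the other direction the F-box/kelch-repeat contig At1g16250 (TR129428, 905 nt) read 0.32 and 2.02 FPKM in leaf against 0.26 and 0.14 in petal, from 5, 24, 3 and 2 fragments. Leaf 1 was close to petal 1 in this contig, so the difference rested on leaf 2. The F-box protein At5g07610-like (TR118541) overlapped between tissues, with 6.59 and 7.62 FPKM in leaf against 3.38 and 11.85 in petal. A contig whose first hit was an S haplotype clone with F-box genes and an S ribonuclease (TR145355, 370 nt), the locus of self-incompatibility in rosaceous trees, held 7 fragments, all in petal 2. Its hit had an E-value of 2e-09, and whether the contig comes from that locus was not tested.

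Of the 54 RING and other E3 contigs, 9 held at least 20 fragments, of which 0 were higher in both petal libraries and 2 were higher in both leaf libraries. Beside these few contigs stand shares of 26.6% and 22.9% over other rosaceous-hit contigs with at least 20 fragments, and of 16.9% and 13.3% over all such contigs. The RING1 contig (TR1244, 740 nt) read 5.39 and 5.75 FPKM in leaf against 3.94 and 2.07 in petal. Its leaf mean was 1.85 times its petal mean, and its log2 difference of -0.75 (SE 1.55) was not called (limma, adjusted p = 0.718). The contig of the RING-H2 protein ATL61 (TR112440, 595 nt), of a family of membrane-bound ligases, read 2.95 and 2.15 FPKM in leaf against 0.35 and 1.95 in petal. The gap between leaf 2 and petal 2 was small, and the log2 difference was -0.82 (SE 1.75; limma, adjusted p = 0.729). All 12 contigs with ATL or RING-H2 in the name held 116 fragments, with 35 and 20 in leaf and 17 and 44 in petal.

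The PUB24 contig (TR19726, 1451 nt), named for a ligase that dampens immune signalling in Arabidopsis with PUB22 and PUB23, read 1.29 and 1.40 FPKM in leaf, 0.37 FPKM in petal 1 and 6.89 FPKM in petal 2. Petal 1 was the lowest and petal 2 the highest of the 4 libraries. The log2 difference of 0.49 (SE 1.81; limma, adjusted p = 0.854) was called at 1.75 without petal 1 and stood at -0.78 without petal 2. The PUB23-like contig (TR101376, 870 nt) was likewise highest in petal 2, at 1.17 FPKM beside 0.27 and 0 FPKM in leaf with 0.09 FPKM in petal 1, from 21 fragments in all. Petal 2 is also the library in which grey mould hits took 27.8% of the table's fragments and mite and spider hits 4.83%, and their part in these values was not tested.

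The XBAT33 contig (TR137219, 424 nt) followed the library number more than the tissue, at 10.15 FPKM in leaf 1 and 6.35 in petal 1, and at 1.83 FPKM in leaf 2 and 0.95 in petal 2. Its tissues overlapped, and the log2 difference of -0.57 (SE 1.68) was not called (limma, adjusted p = 0.812). The RING1-like contig (TR1670) also had both libraries of number 1 above those of number 2, with 2.17 and 4.42 FPKM in leaf 1 and petal 1 and 0.41 and 0 FPKM in leaf 2 and petal 2. The 3 contigs of the E3 At1g63170 that were above 0 summed to 83 fragments and showed no tissue order, with 27 and 20 fragments in leaf and 7 and 29 in petal.

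Several RING ligases of known plant roles were seen at a few fragments. CCNB1IP1 homolog, named for a vertebrate protein whose plant relative HEI10 acts in meiotic crossover, held 11 fragments on 3 contigs. BRE1-like 2, for the ligase of histone H2B, held 4 fragments, all in petal 1. Listerin, which marks proteins on stalled ribosomes, held 4 fragments, 1 in leaf 2 and 3 in petal 2. At this depth no tissue difference of these contigs was detectable.

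Of the 10 U-box contigs, whose ligase domain folds like a RING without metal ions, 1 held at least 20 fragments. The U-box 51-like contig (TR124130, 2460 nt), the longest member, read 0.02 and 0 FPKM in leaf against 1.09 and 0.70 in petal. These values rest on 1 and 0 fragments in leaf and 44 and 36 in petal, so both petal libraries were far above both leaf libraries. Its mean was under 1 FPKM and it was not tested in either fit, and limma-voom on the fragments did not call it. Outside this contig the U-box 30-like contig (TR1569, g2) read 4.26 and 1.90 FPKM in leaf against 12.66 and 5.76 in petal from 18 fragments, a log2 difference of 1.30 (SE 1.5) that was not called, and its sister g1 was listed at 0 throughout. The U-box 34-like contig (TR122700) held 5 fragments in leaf 2 and 1 in petal 2, and the U-box 33 contig (TR141621) 5 fragments in leaf 2, with 0 elsewhere.

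The SCF core and the HECT ligases were thinly covered. The cullin-1 contig (TR15491, 761 nt), for the scaffold of SCF ligases, was seen in leaf 1 (1.16 FPKM) and petal 1 (1.14 FPKM) and was listed at 0 in leaf 2 and petal 2. The contig of SKP1-interacting partner 15 (TR141027), itself an F-box protein in Arabidopsis, showed the reverse, with 2.43 FPKM in leaf 2 and 1.56 in petal 2 and 0 in leaf 1 and petal 1. A SKP1-like 21 contig (TR106453) held 2 fragments, in petal 1. HECT ligases carry ubiquitin on a cysteine of their own. The UPL2-like contig (TR134595) read 0.94 FPKM in leaf 1, 13.46 in petal 1 and 0 in leaf 2 and petal 2, from 15 fragments, and was not called at a log2 difference of 1.45. UPL3 (TR113693) held 3 fragments in each of leaf 1 and petal 1, and UPL5 (TR137624) 3 fragments in petal 2.

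The 13 proteasome contigs held 125 fragments in all, 27 and 30 in leaf and 30 and 38 in petal. The contig of ECM29 homolog (TR20091, 920 nt), named for a protein that binds the assembled proteasome, alone held at least 20 fragments. It read 0.50 and 0.90 FPKM in leaf against 0.51 and 0.94 in petal, so that libraries of the same number were nearly equal and the tissue means were 0.70 and 0.725 FPKM. All 10 contigs of 26S subunits are named non-ATPase regulatory subunits, after the particle that receives and unfolds targets. They held 67 fragments. No member in the table's part of the assembly named a subunit of the catalytic core. Subunit 9 (TR1482), an assembly chaperone of that particle in yeast and mammals, read 1.27 and 1.71 FPKM in leaf against 0.48 and 0.38 in petal, but from 8 fragments. Subunit 12 (TR109362) held 3 and 2 fragments in leaf and 2 and 0 in petal, and subunit 1 (TR135346) 4 fragments in petal 2. Subunit 14 (TR116817), the deubiquitinase of the lid, read 0.81 and 0.54 FPKM in leaf against 0.35 and 0.84 in petal.

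The 6 deubiquitinase contigs held 9 fragments in all. The 3 highest were the hydrolase 13-like contig (TR105769), with 3 fragments in leaf 1, an otubain-like contig (TR143094), with 3 in petal 1, and the hydrolase 12-like contig (TR146745), with 2 in petal 2. Such counts do not show a difference between any pair of libraries.

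Among the 8 members linked to ubiquitin in other ways, the ubiquitin-related modifier 1 homolog 2 (TR137586, 1023 nt) had the most fragments of any member (2716). URM1 is a ubiquitin-like protein that carries sulfur for the modification of transfer RNA. It read 44.64 and 48.70 FPKM in leaf against 35.90 and 39.85 in petal. Leaf (46.7 ± 2.87, SD, n = 2) was 1.23 times petal (37.9 ± 2.79, SD, n = 2) with no overlap, and the log2 difference of -0.29 (SE 0.66) was not called (limma, adjusted p = 0.742). The contig named mitochondrial ubiquitin ligase activator of nfkb (TR12896, 411 nt), a membrane ligase described in mammals, read 14.81 FPKM in leaf 1, 5.69 FPKM in petal 1 and 0 in leaf 2 and petal 2. By the words of its hit this ligase was not counted among the RING and other E3 contigs. Of the contigs named for SUMO, a modifier related to ubiquitin, TR100449 held 1 and 0 fragments in leaf against 12 and 2 in petal, and TR126623 held 0 and 7 in leaf against 4 and 4 in petal, where the tissues overlapped. The contigs of RUB2, the NEDD8 relative that modifies cullins, held 9 fragments on 2 contigs of TR131976, 6 in leaf 1 and 3 in petal 2.

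Some members were seen in the libraries of 1 number alone, a pattern also present among the other rosaceous-hit contigs. Of the 40 members with at least 20 fragments, 7 (17.5%) were above 0 in leaf 1 and petal 1 and at 0 in leaf 2 and petal 2, beside 4.03% of all contigs and 8.96% of other rosaceous-hit contigs at that depth. None of the 40 was above 0 in both petal libraries alone or in both leaf libraries alone, where 6.23% and 4.53% of the other rosaceous-hit contigs were, nor in leaf 2 and petal 2 alone, where 6.70% were. At a minimum of 6 fragments, 14 of 110 members (12.7%) were above 0 in leaf 1 and petal 1 alone and 12 (10.9%) in leaf 2 and petal 2 alone, beside 9.63% and 7.89% of other rosaceous-hit contigs (and, for leaf 1 and petal 1, 4.14% of all contigs). At that minimum 4 members were in both leaf libraries alone and 0 in both petal libraries alone, beside 5.90% and 8.14%. These shares were compared as counts with no test.

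The 7 contigs, singled out after their values were seen, comprised 4 F-box contigs, BIG BROTHER-like, cullin-1 and the mitochondrial ligase. The F-box protein SKIP22-like contig (TR19271, g2, 1665 nt) held 20 fragments in leaf 1 and 72 in petal 1. The F-box/FBD/LRR-repeat At1g13570-like contigs TR12842 and TR128254, which share a hit, read 1.91 and 2.22 FPKM in leaf 1 and 2.17 and 2.59 FPKM in petal 1. The At1g44080 contig (TR20164) read 1.10 and 3.24 FPKM in leaf 1 and petal 1. The contig of BIG BROTHER-like (TR101807, 562 nt), named for a ligase that limits the size of petals and other organs in Arabidopsis, held 16 fragments in leaf 1 and 10 in petal 1. For SKIP22-like a count of 0 in both leaf 2 and petal 2 allows a mean of up to 0.0502 FPKM there (3 fragments over the 2 libraries), and the mean of leaf 1 and petal 1 was at least 33.5-fold higher. For BIG BROTHER-like the same bound was at least 8.30-fold. These limits cover counting error only. Beyond what all 4 libraries share, the labels give these pairs only a number in common.

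**Figure D4:**
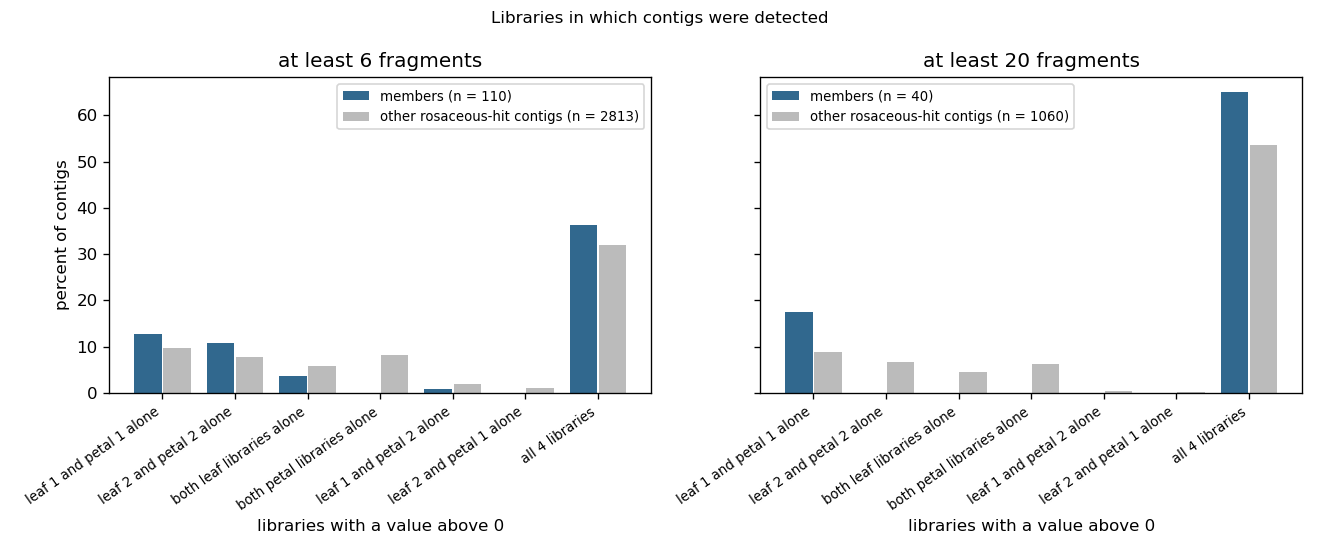
Percent of contigs (y axis) that were above 0 only in the libraries named on the x axis, for members (blue) and other rosaceous-hit contigs of at least 300 nt (grey), at minimums of 6 and 20 fragments. Members in leaf 1 and petal 1 alone (12.7% and 17.5%) outnumber those in both petal libraries alone (0 at both minimums).

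The same words also occurred in contigs that were not members. There were 279 rosaceous-hit contigs under 300 nt, none of which held 20 fragments, and 351 contigs with a hit outside the 5 genera. Of the latter, 204 aphid contigs held 6 and 4 fragments in leaf and 412 and 735 in petal, and 43 spider and mite contigs held 1638 fragments, all in petal 2. The 35 contigs with a hit to the leaf spot fungus Marssonina held 116 and 32 fragments in leaf and 0 and 19 in petal. In petal 2 the members held 3747 fragments. Members and these contigs were parted only by the first hit, and how many fragments of conserved proteins were shared between them was not tested.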

How the data were processed

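Total RNA from leaf (2 libraries) and petal (2 libraries) was depleted of ribosomal RNA and read as paired ends. The authors built contigs with Trinity (2.0.6), compared them with NCBI databases and quantified them by RSEM on bowtie alignments (for both tools the version is not given in the sources used here). FPKM as deposited by the authors carry 2 decimals and cover 65535 contigs, a part of the assembly. Roles were set from words in the hits. Some of these hits were weak, with E-values of 4e-09 for RING1 (TR1244), 1e-07 for At1g44080 (TR20164) and 3e-13 for cullin-1 (TR15491). Such names are uncertain. The members and lists were chosen with earlier results of these data known.

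The fragments worth 1 step of FPKM were fitted per library (scipy 1.17.1, Python 3.11.15). Mapped fragments and mean fragment lengths are estimates from this fit. The fit was checked on values of at least 0.3 FPKM and up to 10 fragments, in contigs from 300 to under 500 nt. Of these values, 98.2% to 98.4% came within 0.1 of a whole number. The fit itself used low values near whole numbers, so this share is partly built in. Fragments were then rounded to whole numbers, also where contigs may share reads. Tests were limma (3.58.1, R 4.3.3) with a trend on log2(FPKM + 1), tissue as the only term, Benjamini-Hochberg adjusted over all contigs tested, two-sided at 0.05. FPKM are no counts, and a log2 difference with a pseudocount of 1 understates changes of low contigs. An exact permutation test of 2 against 2 libraries cannot go below p = 0.333 and was not used.

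Contigs named were, per role, the 3 with the highest mean FPKM, the highest and lowest log2 difference among those with at least 20 fragments and no overlap, and sister contigs with the same hit. All others were chosen after their values were seen. Alternatives were pseudocounts of 0.1 and 10, other scalings, priors and filters, limma-voom, a replicate block and leaving out each library. The fragments given to limma-voom were not scaled by effective length. Sequences and coordinates were not used here.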

Additional observations from a re-analysis of the deposited data

How the results depend on the processing

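With the study's filter, 0 members were called under any of the 13 alternatives. With a mean of at least 1 FPKM, 1 member, the leading polyubiquitin contig (TR100631), was called with a pseudocount of 10 (log2 difference 0.69, limma adjusted p = 2.55e-10), 1 with a robust prior (the same contig) and 1 with the replicate block (the same contig, 0.70, limma adjusted p = 0.0196), and leaving out 1 library gave 0 to 8. Over all contigs, the 24 calls of the study's filter became 0 with no trend in the prior, 51 with the replicate block, 105 with limma-voom and 305 to 810 without 1 library. The 9 calls with a mean of at least 1 FPKM became 167 with a pseudocount of 0.1, 15 with one of 10, 0 with median-ratio scaling, 0 with no trend, 72 with a robust prior, 52 with the replicate block, 810 with limma-voom, 1 on rosaceous hits alone, 3 with no filter on low values, 0 with at least 20 fragments and 0 to 8924 without 1 library. The causes were not tested. Without 1 library the spread of the lone library was assumed to be that of the other tissue.

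No label says what a replicate number marks. The deviations of same-numbered libraries from their tissue means correlated at 0.50 over 1164 rosaceous-hit contigs with at least 20 fragments and at 0.50 over the 40 members among them (across contigs, which are not independent, with 2 pairs of libraries). On those contigs limma-voom, chosen after seeing the data, called 1 contig and 0 members, and with the replicate block 99 contigs and 4 members, namely E2 28 (TR14178, i1), the polyubiquitin-like contig (TR19606, g1), At5g06550 (TR114272) and At1g60180 (TR124209), all higher in petal.

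The median log2 difference of the members (0.10) was 0.02 with rosaceous-hit sums made equal, 0.25 with limma-voom and 0.00 to 0.68 without 1 library. Members with at least 20 fragments that were higher in every petal library numbered 16 to 22 without 1 library, and those higher in every leaf library 6 to 11, counts chosen after seeing the data. Such counts can only stay or rise when a library is left out. Among 23 named members tested, 10 of 230 repeated values changed sign, none of them called in any fit at that sign. These were RUB2 (TR131976, g2) with limma-voom (0.14) and, over libraries left out, the U-box 34-like contig (TR122700, -2.84 to 0.55), the mitochondrial ligase (TR12896, -2.61 to 1.37), RUB2 (-1.56 to 1.14), UPL2-like (TR134595, -0.48 to 3.38), XBAT33 (TR137219, -1.56 to 0.42) and PUB24 (TR19726, -0.78 to 1.75). Of the 185 members, 145 held fewer than 20 fragments, and each tissue had 2 libraries.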
